A study of Saccharomyces cerevisiae with 4 samples.

Results

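The transcripts that sat on polysomes in growing budding yeast were read from 2 of the 4 arrays of a study of ribosome loading: polysomal RNA and sub-polysomal RNA of control cells, with 1 array each. A gene was measured when a probe set naming that gene alone lay above the 40th percentile of both arrays, which held for 4126 of the 5656 genes that such probe sets name. The quantity throughout is the log2 ratio of polysomal over sub-polysomal intensity, with each array centred on its own median, so a positive ratio means relatively more of the transcript in the polysomal RNA.

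Strain BY4741 of Saccharomyces cerevisiae (MATa, his3Δ1 leu2Δ0 met5Δ0 ura3Δ0 in the labels) was grown at 30 °C in rich YEPD medium of pH 5.4. At an OD600 of 0.5, control cultures received water and the other cultures 2 mM dithiothreitol (DTT), a reducing agent, for 1 h. Every culture then received cycloheximide at 0.1 mg/mL, which freezes ribosomes on the mRNA, and sucrose gradients of 15 to 60% divided the lysates into polysomal and sub-polysomal RNA. The groups used are control polysomal RNA, control sub-polysomal RNA and, for a side-by-side view, DTT polysomal and DTT sub-polysomal RNA; each is 1 array (n = 1) of RNA pooled from 3 extracts, and all lysis and gradient buffers held 0.5 mM DTT.

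An mRNA that is being translated usually carries several ribosomes, and such polysomes run deep into a sucrose gradient. An mRNA with no ribosome, with only the small subunit or with a single ribosome stays near the top, together with free subunits and most noncoding RNA. How far an mRNA moves depends on how often ribosomes start on it, how fast they travel and how long its coding region is, since a short coding region holds few ribosomes at once.

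With 1 array a side there are no replicates and hence no p-values; genes are called higher or lower when past 2-fold, which is 1 on the log2 scale. For an error, the 175 genes read by several probe sets gave an SD of 0.45 for the ratio among probe sets of a gene. It does not cover cultures, gradients or hybridisations. Because the RNA of each fraction was labelled separately, a ratio is relative to the other transcripts of its array and does not give the share of a transcript that was on polysomes. A transcript taken off ribosomes in some cells and one thinned out on ribosomes in all cells cannot be told apart.

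The strain markers were read first. URA3 read 0.9 in polysomal and 1.2 in sub-polysomal RNA, and MET17 read 7.1 and 2.9, all under the floors of 17.6 for the polysomal and 28.2 for the sub-polysomal array. All LEU2 probe sets also lay under both floors, whereas HIS3 read 207.8 in polysomal and 186.1 in sub-polysomal RNA on its brighter probe set. MET5 read 96.7 and 184.5, above both floors, which goes against the deletion that the labels give. The a-specific genes MFA1, MFA2, STE2, STE6, BAR1 and AGA2 lay above both floors, and ASG7 (18.3 and 23.3) above the polysomal one alone. The alpha-specific STE3 (8.3 and 27.0) lay below both, while MF(ALPHA)1 (18.4 and 15.9) lay above the polysomal floor and SAG1 (31.0 and 50.2) above both.

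Of the 4 arrays, the control sub-polysomal one correlated least with the rest (Spearman rho over probe sets 0.885 to 0.920, against 0.922 to 0.959 among the others). The actin gene ACT1 carries separate control probe sets along its length. The ratio there was 1.08 at the 5′ end, 0.81 in the middle and 0.37 at the 3′ end, and the 3′ probe set read 1.52 times the 5′ one in polysomal RNA, against 2.49 times in sub-polysomal RNA. SPT15, for the TATA-binding protein, followed the same order with 0.72, 0.44 and 0.22, while the mediator subunit gene SRB4 ran from -0.90 at the 5′ end, where the polysomal reading was under the floor, to -0.37 at the 3′ end. The part of this difference between arrays in the ratios below was not tested.

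Ratios spanned -3.93 to 2.61 with an all-gene median of -0.053. At least 2-fold higher in polysomal RNA were 282 genes (6.83% of all measured), and 282 (6.83%) were at least 2-fold lower, so 3562 genes lay within 2-fold. Brighter genes had higher ratios, with a Spearman rho of 0.34 across genes on the same 2 arrays. Of 4 equal groups by brightness, the dimmest had a median of -0.35, with 5 genes 2-fold higher and 109 lower, and the brightest a median of 0.31, with 146 higher and 22 lower. The polysomal floor (17.6) lay under the sub-polysomal one (28.2), so among dim genes the filter itself favoured negative ratios. With no floor, 900 genes were 2-fold higher and 469 lower. The share of the filter in the trend with brightness was not tested. The plot of both arrays' intensities shows this trend, and also that the few transcripts far brighter than the rest bend back below the line of ratio 0. For this reason a list is given below by its relative median, which is its median minus the all-gene median, beside the value under loess scaling, a correction for that trend.

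**Figure D1:**
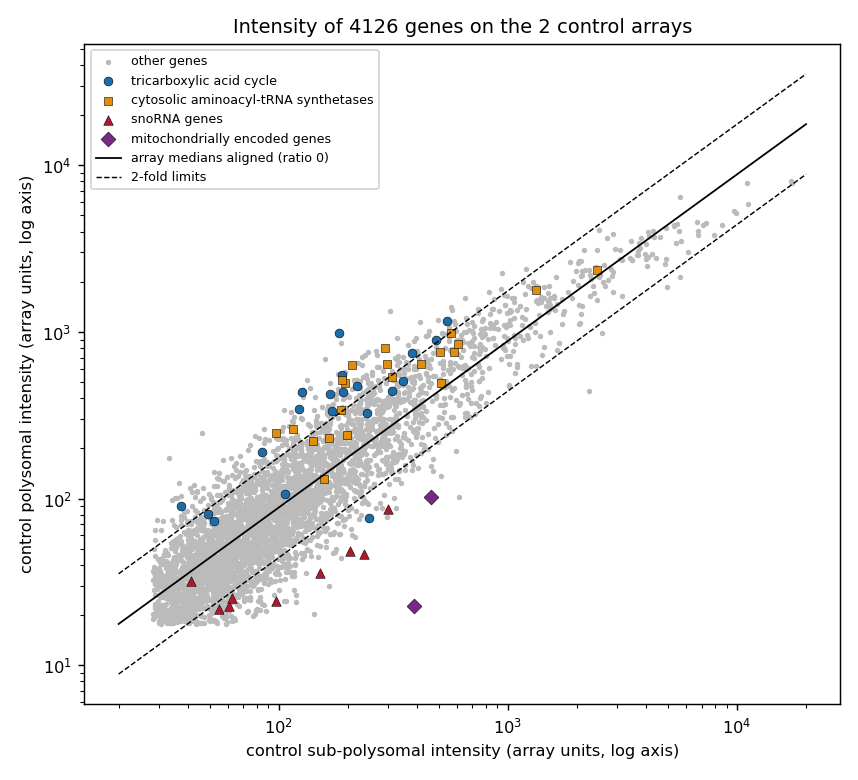
Intensity of each measured gene in polysomal RNA and in sub-polysomal RNA of control cells, both on log axes in array units, 1 point per gene and 1 array a side. The solid line is a ratio of 0 and the dashed lines are the 2-fold limits, with 282 genes past each; tricarboxylic acid cycle and aminoacyl-tRNA synthetase genes lie mostly above the solid line, small nucleolar RNA and mitochondrially encoded genes below it.

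The 15 highest ratios, among 3336 genes with a plain probe set above the median of both arrays, belonged to metabolic enzymes, the tubulins TUB1 and TUB2, an RNA-binding protein and a proline isomerase of protein folding. LAT1, the acetyltransferase subunit of pyruvate dehydrogenase, read 982.8 in polysomal RNA and 182.8 in sub-polysomal RNA, a 6.09-fold centred difference and the highest ratio of all measured genes. ARA1, a sugar dehydrogenase gene, read 247.7 and 46.3 (6.06-fold). The beta-tubulin gene TUB2 read 852.9 and 186.1 (5.19-fold). Its partner gene TUB1, for alpha-tubulin, was also in this group at 724.0 in polysomal and 238.2 in sub-polysomal RNA (3.44-fold), so both subunits of the microtubule building block were high. The other alpha-tubulin gene, TUB3, had a ratio of 0.54, within 2-fold.

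Amino acid metabolism gave several of these genes. ARO8, an aromatic aminotransferase gene, read 1343.1 in polysomal and 306.5 in sub-polysomal RNA (4.96-fold), and the asparagine synthetase gene ASN2 read 515.1 and 132.9 (4.39-fold). ILV1, for threonine deaminase, had a ratio of 1.87 and THR1, for homoserine kinase, one of 1.80. SBP1 encodes an RNA-binding protein that represses translation of other mRNAs, and its own transcript read 692.0 and 159.3 (4.92-fold). CPR5, a proline isomerase gene of the endoplasmic reticulum (ER), stood at 1.99, the fumarase gene FUM1 at 1.96 and the hexokinase gene HXK1 at 1.94. The ribonucleotide reductase gene RNR4 (1.84), the nicotinamidase gene PNC1 (1.81) and the sterol reductase gene ERG4 (1.80) complete the group. The plot of their intensities shows the polysomal point to the right of the sub-polysomal one for each. In DTT-treated cells all 15 had positive ratios, between 0.74 and 1.65, and 12 were 2-fold higher.

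The 15 lowest in the same pool mixed noncoding RNA, very short coding regions, regulators, a permease gene and others. BRE4, a membrane protein gene, read 29.7 in polysomal RNA and 165.8 in sub-polysomal RNA (4.93-fold lower in polysomal RNA). OST4, the smallest subunit of oligosaccharyltransferase with a coding length of 111 bp, read 440.0 and 2255.1 (4.53-fold lower). The guide RNA genes SNR8, SNR5 and SNR70, whose products direct modification of ribosomal RNA, had ratios of -2.16, -1.90 and -1.89. COX1, which is encoded and translated inside mitochondria, stood at -2.01.

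Among the protein-coding genes of this low group, the allantoate permease gene DAL5 read 43.7 in polysomal and 187.6 in sub-polysomal RNA (-1.92). PCL1, a G1 cyclin gene, read 136.4 and 510.5 (-1.73). LSM6, of the ring that binds the ends of U6 and of decaying mRNA, read 77.6 and 295.5 (-1.75), although its ratio in DTT-treated cells was 0.21. VPS71, of the chromatin complex that deposits the histone variant H2A.Z, had -1.70 and DAD4, of the kinetochore ring, -1.61. The remaining genes were DPI8 (-1.70), RRT5 (-1.67), YOR062C (-1.71) and YOR338W (-1.69). Of the 14 measured in DTT-treated cells, 13 had negative ratios there.

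**Figure D2:**
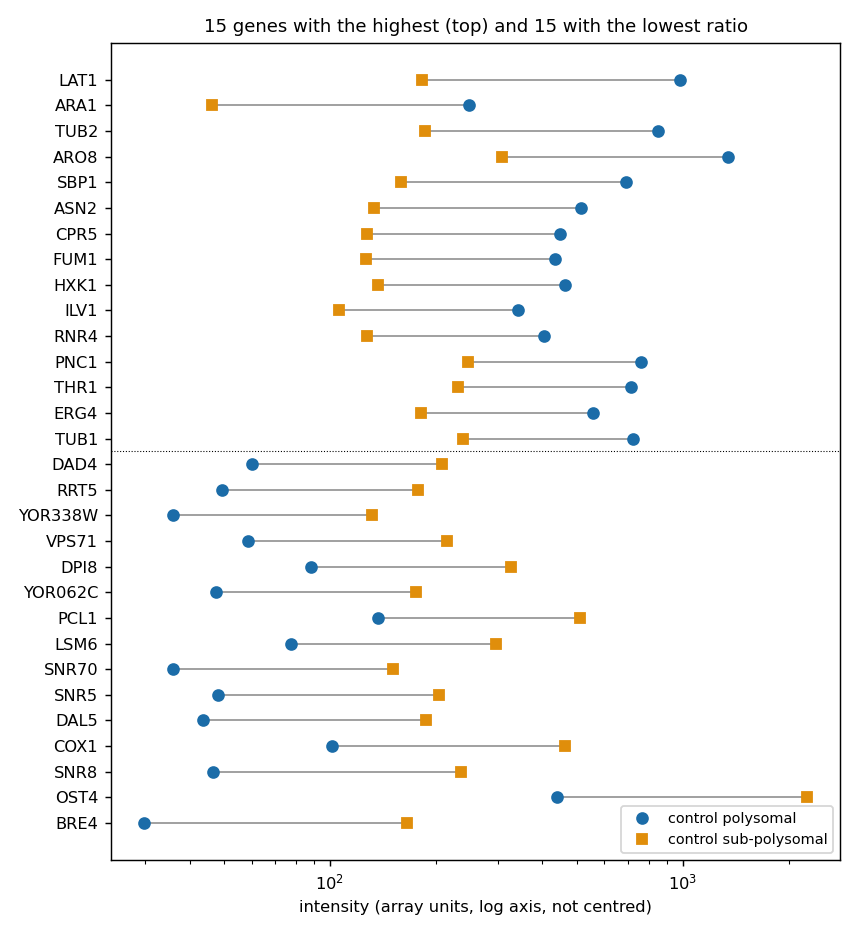
Intensity of the 15 genes with the highest (top) and the 15 with the lowest ratio on a log axis, in array units before centring; circles are control polysomal and squares control sub-polysomal RNA, 1 array each. The highest read 247.7 to 1343.1 in polysomal and 46.3 to 306.5 in sub-polysomal RNA, the lowest 29.7 to 440.0 and 131.4 to 2255.1.

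Transcripts that cytosolic ribosomes do not translate served as a check of the fractions. Of 57 small nucleolar RNA genes on the arrays 9 were measured, none with a ratio above 0, with a median of -1.60 and 8 at least 2-fold lower. They read 21.7 to 87.1 (median 31.9) in polysomal RNA and 41.2 to 299.5 (median 97.0) in sub-polysomal RNA. Of 91 tRNA genes 13 were measured, by probe sets that may read more than 1 gene, with a median of -0.81 and 0 above 0. The ribosomal RNA gene RDN37-1 stood at -2.38, with mean readings of 102.8 in polysomal and 610.0 in sub-polysomal RNA. Ribosomal RNA is part of the ribosomes themselves, so this value is no check of the fractions, and the cause of its low ratio was not tested.

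The 2 measured mitochondrially encoded mRNAs, which mitochondrial ribosomes translate, lay on the same side. OLI1, for the ring subunit of the mitochondrial ATP synthase, read 22.6 in polysomal and 390.6 in sub-polysomal RNA, a ratio of -3.93 and the lowest of all measured genes. That value rests on 1 probe set; with no floor a second OLI1 probe set (5.7 and 1.9) enters and the gene stands at -0.76. COX1, for cytochrome oxidase, read 101.5 and 463.2. Of 28 mitochondrial probe sets 26 stayed under a floor. Most of their readings were lower in polysomal RNA, and those that were higher there reached at most 5.7. Those of ATP6 (0.5 and 17.6), COX2 (0.5 and 14.7) and COX3 (0.7 and 15.2) were lower in polysomal RNA. Those of AI3 (4.4 and 2.8) and one of Q0255 (3.6 and 0.5) were higher there.

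Above the floor on the polysomal array alone were 353 genes, of which 350 code for protein, 2 for ribosomal RNA and 1 for tRNA. On the sub-polysomal array alone there were 275 genes, with 234 protein-coding, 21 small nucleolar RNA and 16 tRNA genes among them. The brightest on the polysomal array alone were ARG7 of arginine synthesis (87.3 in polysomal and 27.3 in sub-polysomal RNA), AVT7, a vacuolar transporter gene (73.6 and 26.2), PUT2 of proline breakdown (71.7 and 27.1), BNA5 of NAD synthesis (71.6 and 28.1) and COS6 (67.5 and 24.7). On the sub-polysomal array alone they were the ribosomal RNA gene RDN25-1 (11.0 in polysomal and 151.0 in sub-polysomal RNA), SNR128 (14.6 and 106.8), YOL014W (16 and 83), the nuclear fusion gene KAR5 (17 and 79.4) and SNR39 (12.5 and 76.1).

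Functions were described with 46 gene lists, chosen with earlier results of these data known. Of these, 44 had at least 4 measured members. Their medians lay above the all-gene median in 32 lists and below it in 12, which describes the lists chosen and no more. In the plot of all lists, members of most lists spread over more than the distance between neighbouring medians. Members are not replicates, and a list's counts are to be read against the 6.83% of all measured genes that were 2-fold higher, the 6.83% that were 2-fold lower and the 47.3% with a ratio above 0.

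**Figure D3:**
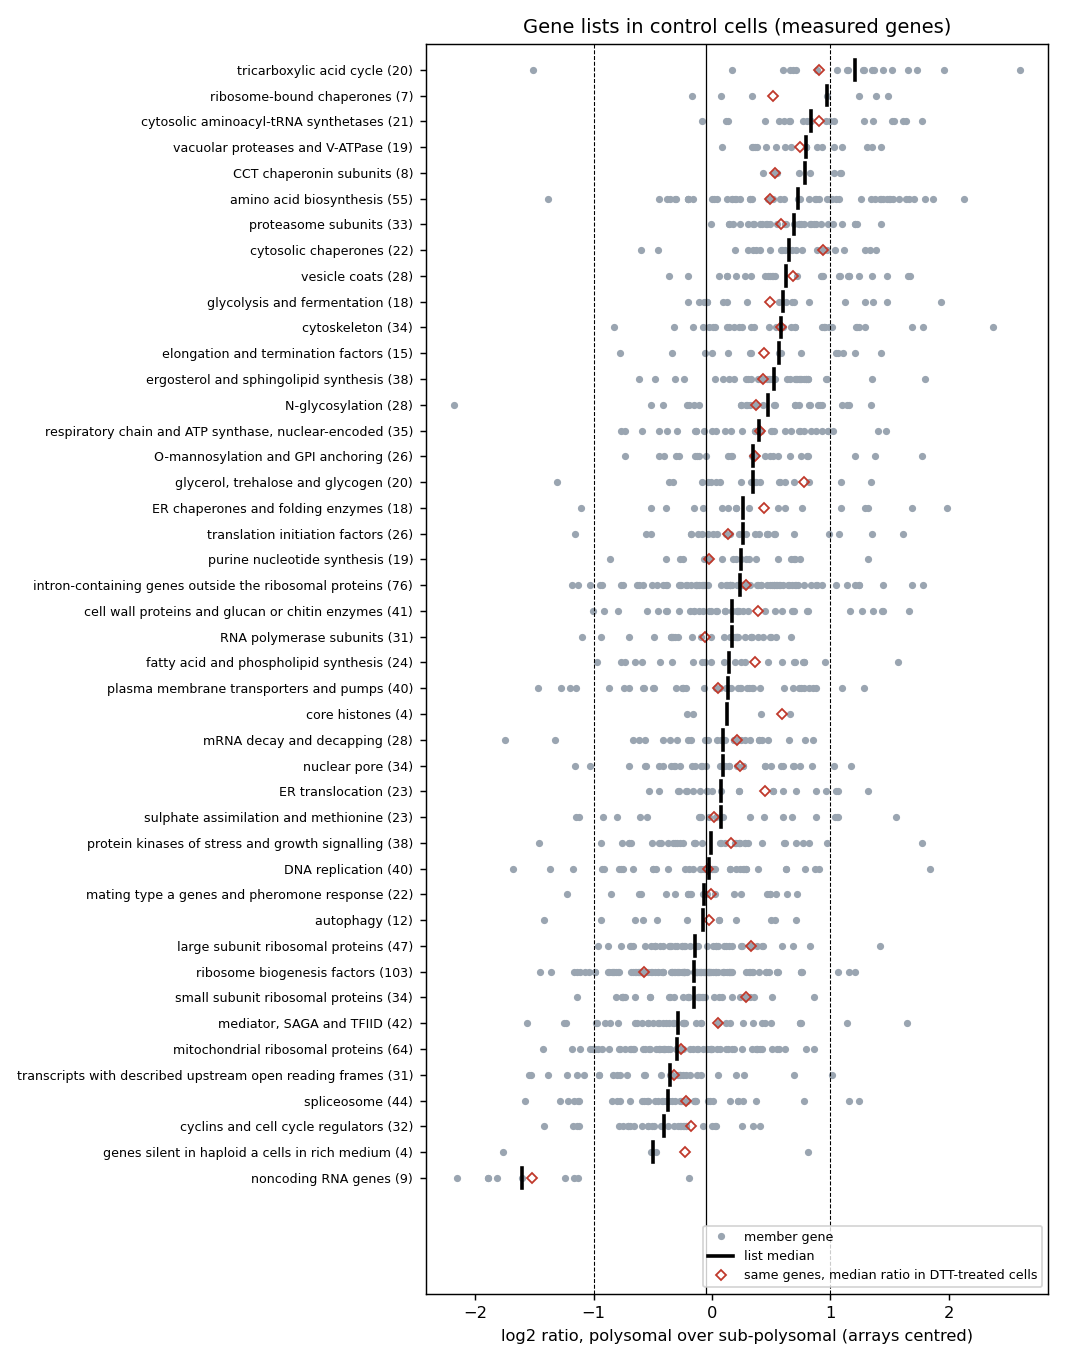
Log2 ratio of every measured member of each gene list in control cells, with the number of measured members in brackets; black bars are list medians and open diamonds the median of the same genes in DTT-treated cells. The solid line is the all-gene median and the dashed lines the 2-fold limits; tricarboxylic acid cycle genes lie at the top with a median of 1.21 and noncoding RNA genes at the bottom with -1.60.

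The enzymes of pyruvate dehydrogenase and the tricarboxylic acid cycle, which oxidise pyruvate in mitochondria, were the list with the highest median, except that the list of ribosome-bound chaperones came first under loess scaling (0.98). The relative median of the cycle list was 1.27 (0.96 under loess scaling), with 13 of 20 genes 2-fold higher and 1 lower. Besides LAT1 and FUM1, PDA1 (554.3 in polysomal and 189.0 in sub-polysomal RNA, 1.73) and PDB1 (342.6 and 123.1, 1.66) were high. Both encode pyruvate dehydrogenase subunits, as do LPD1 (434.9 and 190.3, 1.37) and PDX1 (73.1 and 52.4, 0.66), the latter within 2-fold. SDH1, for the flavoprotein of succinate dehydrogenase, had the lowest positive ratio at 0.17. CIT2, which encodes the citrate synthase of peroxisomes and not of the cycle, read 76.3 and 246.4 (-1.51).

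Other mitochondrial functions did not share that position. Nuclear genes of the respiratory chain and ATP synthase had a relative median of 0.45, which was 0.12 under loess scaling, with 3 of 35 genes 2-fold higher and 0 lower. ATP5 (132.0 in polysomal and 54.0 in sub-polysomal RNA, 1.47) and the Rieske iron-sulphur protein gene RIP1 (515.3 and 220.0, 1.41) were highest. The short ATP synthase genes ATP15 (375.8 and 724.2, -0.77) and ATP18 (437.6 and 822.2, -0.73) were lowest. Mitochondrial ribosomal protein genes, which are translated in the cytosol, had a relative median of -0.24 (-0.23 under loess scaling). Of 64, none was 2-fold higher and 6 were lower, from MNP1 (0.87) to MRPL44 (45.1 and 137.7, -1.43).

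Within cytosolic translation, the lists of charging enzymes and of ribosome-bound chaperones were high and the ribosomal proteins were not. Aminoacyl-tRNA synthetases, which attach amino acids to tRNA, had a relative median of 0.89 (0.60 under loess scaling and 0.56 under quantile scaling), with 8 of 21 genes 2-fold higher, 0 lower and 20 above 0. The asparagine enzyme gene DED81 read 632.8 in polysomal and 209.2 in sub-polysomal RNA (1.78), and the threonine enzyme gene THS1 read 802.2 and 290.6 (1.64). GLN4, for glutamine, was lowest at -0.09. The list of ribosome-bound chaperones had a relative median of 1.03 (0.98 under loess scaling), with 3 of 7 genes 2-fold higher. It also holds genes for enzymes that act on new protein ends and are not chaperones: NAT1 (0.97), whose ratio is the list median, ARD1 (0.34) and MAP1 (0.08). The partners SSZ1 (1.48) and ZUO1 (1.39) were highest, and the nascent-chain complex gene EGD2 (1735.2 and 828.7, 1.24) stood well above its partner gene EGD1 (2900.4 and 3680.0, -0.16).

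Elongation and termination factors had a relative median of 0.62 (0.48 under loess scaling), with 5 of 15 genes 2-fold higher and 0 lower. DYS1, which starts the hypusine modification of eIF5A, read 514.2 in polysomal and 216.5 in sub-polysomal RNA (1.43), and the ribosome recycling gene RLI1 read 462.9 and 226.3 (1.21). DOM34, of the rescue of stalled ribosomes, was lowest (-0.77). Initiation factors had a relative median of 0.31, but 0.048 under loess scaling, with 3 of 26 genes 2-fold higher and 1 lower. PAB1, the poly(A)-binding protein gene, read 724.2 and 267.5 (1.62), the eIF2 gamma subunit gene GCD11 read 614.7 and 272.7 (1.35), and the helicase gene DBP1 read 18 and 45.5 (-1.16), close to the floors.

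Ribosomal protein mRNAs lay slightly below the median of all genes. Large subunit genes had a relative median of -0.090 (-0.16 under loess scaling), with 20 of 47 above 0, 1 at least 2-fold higher and 0 lower, and small subunit genes one of -0.10 (-0.21 under loess scaling), with 10 of 34 above 0, 0 higher and 1 lower. Several of the brightest transcripts on the arrays were among them. RPL36A read 7833.3 in polysomal and 17315.3 in sub-polysomal RNA (-0.97), and RPL37A read 3808.2 and 7930.1 (-0.88). RPS28B was the low exception at 1860.4 and 4964.0 (-1.14). RPL7A was the high one at 1.42; it is read by probe sets not of the plain kind, which may read its copy RPL7B too, and its ratio was 0.33 when the floor was lowered to the 20th percentile and 0.49 without one. RPL36A and RPS28B are also read by no plain probe set, so their readings may include those of their copies RPL36B and RPS28A. Because many ribosomal protein genes have near-identical copies, 47 of 81 listed large subunit genes and 34 of 57 small subunit genes had a probe set that names 1 gene.

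Ribosome biogenesis factors, the nucleolar and assembly proteins, had a relative median of -0.094 (-0.27 under loess scaling), with 3 of 103 genes 2-fold higher and 7 lower. The large subunit assembly factor gene TIF6 (711.8 in polysomal and 349.1 in sub-polysomal RNA, 1.21) and the fibrillarin gene NOP1 (659.0 and 335.1, 1.15) were highest. UTP18, of the small subunit processome, read 192.0 and 595.7 (-1.45), and the helicase gene DBP7 read 52.0 and 150.7 (-1.36). RNA polymerase subunits had a relative median of 0.22 that turned to -0.015 under loess scaling, with 0 of 31 genes 2-fold higher and 1 lower, RPC10 (-1.10).

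Chaperone, chaperonin and proteasome genes had medians above that of all genes. All 8 genes of the CCT chaperonin, the ring that folds actin and tubulin, had positive ratios, from CCT8 (0.43) to TCP1 (420.3 in polysomal and 223.4 in sub-polysomal RNA, 1.09), with a relative median of 0.84 (0.52 under loess scaling). Proteasome subunits had a relative median of 0.75 (0.51 under loess scaling), with 32 of 33 above 0, 6 at least 2-fold higher and 0 lower. RPN10, a ubiquitin receptor gene, read 421.5 and 177.6 (1.43), SCL1 of the core ring had 1.23, and the ATPase gene RPT4 was lowest at -0.01. Cytosolic chaperones had a relative median of 0.70 (0.49 under loess scaling), with 5 of 22 genes 2-fold higher and 0 lower. The Hsp90 partners CPR6 (1.39) and AHA1 (1.33) led, and the stress-induced Hsp70 genes SSA3 (-0.60) and SSA4 (-0.46) lay lowest. Autophagy genes, for the other route of protein turnover, had a relative median of -0.025 (-0.078 under loess scaling and -0.27 with no floor), with 0 of 12 genes 2-fold higher and 1 lower, ATG5 (-1.42).

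Vacuolar proteases and subunits of the vacuolar proton pump were positive in 19 of 19 genes, with 5 at least 2-fold higher. Their relative median was 0.84, and 0.51 under loess and 0.39 under quantile scaling. VMA2, a catalytic-head subunit gene of the pump, read 1359.1 in polysomal and 571.3 in sub-polysomal RNA (1.43). VMA1, for the other head subunit, had a mean of 1.36 from probe sets at 2.08 and 0.63, the lower being the plain one. PBI2, an inhibitor of a vacuolar protease, was lowest at 0.08.

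Biosynthetic metabolism was high for amino acids and sterols. Amino acid biosynthesis had a relative median of 0.78 (0.45 under loess scaling), with 20 of 55 genes 2-fold higher and 1 lower. ASN2 and ILV1 led, and CPA1 (-1.39) and PHA2 of phenylalanine synthesis (-0.45) were lowest. Ergosterol and sphingolipid synthesis had a relative median of 0.58 (0.33 under loess scaling), with 34 of 38 genes above 0 but 2 at least 2-fold higher, ERG4 and the fatty acid elongation gene IFA38 (573.4 in polysomal and 254.3 in sub-polysomal RNA, 1.35). ERG5 was the lowest of this list (-0.61). Glycolysis and fermentation had a relative median of 0.65 (0.36 under loess scaling), with 5 of 18 genes 2-fold higher and 0 lower. The abundant TDH3 transcript, read by a probe set not of the plain kind, stood at -0.11 (4446.7 and 5445.3), against 1.48 for the enolase gene ENO1 (1596.0 and 647.4), also not plain.

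A few metabolic lists changed with the scaling. Purine synthesis had a relative median of 0.30 that turned to -0.089 under loess scaling, with 1 of 19 genes 2-fold higher, the phosphoribosyl pyrophosphate synthetase gene PRS3 (1.32). ADE2, of the same pathway, read 270.4 in polysomal and 555.0 in sub-polysomal RNA (-0.86). Sulphate assimilation and methionine genes had a relative median of 0.13 (0.25 under loess scaling), from SAM2, which makes S-adenosylmethionine (1.55), to the sulphate permease gene SUL2 (-1.15). In fatty acid and phospholipid synthesis, with a relative median of 0.20 (-0.033 under loess scaling), the phosphatidylserine synthase gene CHO1 was high (228.9 and 87.0, 1.57) and the desaturase gene OLE1 low (322.7 and 717.4, -0.97).

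Along the secretory pathway, vesicle coats and glycosylation lay above all genes and translocation near them. Vesicle coat genes had a relative median of 0.68 (0.56 under loess scaling), with 10 of 28 genes 2-fold higher and 0 lower. The coatomer gene SEC28 read 120.2 in polysomal and 42.6 in sub-polysomal RNA (1.68), and ERV29, a cargo receptor gene of vesicles leaving the ER, read 100.7 and 36.1 (1.66). N-glycosylation had a relative median of 0.53 (0.40 under loess scaling), with 4 of 28 genes 2-fold higher, such as WBP1 (397.2 and 177.2, 1.34), and 1 lower. WBP1 and OST4 (-2.18) encode subunits of the same oligosaccharyltransferase. ER translocation genes had a relative median of 0.13 (0.040 under loess scaling), with GET2, for insertion of tail-anchored proteins, highest (1.32).

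ER chaperones and folding enzymes were spread widely around a relative median of 0.31 (0.32 under loess scaling), with 5 of 18 genes 2-fold higher and 1 lower. Besides CPR5, the glucosidase gene CWH41 was high (100.2 in polysomal and 35.1 in sub-polysomal RNA, 1.69). The disulphide oxidase gene ERO1 was lowest (32.4 and 78.9, -1.11). SIL1, a nucleotide exchange factor gene, was next at 73.2 and 118.4 (-0.52), within 2-fold. Cell wall genes, with a relative median of 0.22 (0.093 under loess scaling), ran from the cross-linking enzyme gene CRH1 (404.7 and 144.2, 1.67) to the glucanase gene EXG2 (-1.0) and the mannoprotein gene CCW12, the brightest polysomal reading (8074.2 and 17216.9, -0.91, but 0.034 under quantile scaling). Plasma membrane transporters had a relative median of 0.19 (-0.072 under loess scaling), with 2 of 40 genes 2-fold higher and 4 lower. The inositol transporter gene ITR1 was highest (1.28), and the metal transporter genes ZRT1 for zinc (-1.47, but -0.90 from its brightest probe set alone) and FET4 for iron (-1.27) were lowest.

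Cytoskeleton genes had a relative median of 0.63 (0.37 under loess scaling), with 8 of 34 genes 2-fold higher and 0 lower. SAC6, which bundles actin filaments, read 97.6 in polysomal and 34.2 in sub-polysomal RNA (1.69), and the myosin gene MYO3 was lowest (35 and 70.3, -0.83). ACT1 stood at 0.70 on the probe set that gives its gene value, which is not one of the control probe sets along its length. The glycolytic gene PGK1 (3679.6 and 2698.7, 0.63) and the proton pump gene PMA1 (1442.2 and 968.5, 0.75), both abundant transcripts, were also within 2-fold.

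Lists of nuclear functions lay on both sides of the all-gene median. Cyclins and cell cycle regulators had a relative median of -0.35 (-0.37 under loess scaling), with 0 of 32 genes 2-fold higher, 4 lower and 5 above 0. The mitotic cyclin gene CLB2 read 24.7 in polysomal and 75 in sub-polysomal RNA (-1.42), and SIC1, for an inhibitor of the cyclin-dependent kinase, read 130.5 and 332.8 (-1.17). The phosphatase gene MIH1 (-1.14) and the GTPase gene TEM1 of mitotic exit (-1.13) followed. CLN3, the G1 cyclin that gauges growth, read 406.1 and 560.1 (-0.29), and the kinase gene DBF2 was highest at 0.41.

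Spliceosome genes had a relative median of -0.32, but -0.13 under loess scaling, with 2 of 44 genes 2-fold higher and 6 lower. NAM8 (134.1 in polysomal and 64.1 in sub-polysomal RNA, 1.24) and PRP8, the largest protein of the spliceosome (1.16), were high, and YHC1 (18.4 and 62.2, -1.58) and SNU66 (39.0 and 107.7, -1.29) low. Mediator, SAGA and TFIID subunits had a relative median of -0.23 (-0.14 under loess scaling), with 2 of 42 genes 2-fold higher and 3 lower. The mediator genes SIN4 (103.3 and 37.3, 1.65) and MED1 (19.1 and 63.9, -1.56) lay at its opposite ends. Protein kinases of growth and stress signalling had a relative median of 0.044 (0.060 under loess scaling), with BCY1, for the regulatory subunit of protein kinase A, highest (260.2 and 86.2, 1.77). DNA replication genes had one of 0.027 (0.033 under loess scaling), between RNR4 and PSF1 (23.2 and 84.2, -1.68). Nuclear pore genes stood at 0.14 (0.047 under loess scaling) and mRNA decay genes at 0.15 (0.051 under loess scaling).

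Transcripts with a described upstream open reading frame, a short reading frame in the leader that ribosomes meet before the gene's own start, had a relative median of -0.30 (-0.39 under loess scaling). Of 31, 1 was 2-fold higher, 6 were lower and 5 had a ratio above 0. GCN4, the activator of amino acid synthesis and the textbook case of such control, read 622.8 in polysomal and 1256.6 in sub-polysomal RNA (-0.83). CPA1, an arginine synthesis gene whose upstream frame encodes an arginine-sensing peptide, read 156.2 and 463.2 (2.62-fold lower). SPH1 (-1.55), the mitochondrial translation activator gene PET111 (-1.53) and the respiration regulator gene HAP4 (92.7 and 245.1, -1.22) were also low. LEU4 of leucine synthesis was the exception on the higher side (332.3 and 186.3, 1.01).

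HAC1 makes the activator of the unfolded protein response, and in unstressed cells an unspliced intron keeps its mRNA from being translated. The 3 HAC1 probe sets above both floors had ratios of -1.34, -2.15 and -1.55, with mean readings of 44.8 in polysomal and 148.5 in sub-polysomal RNA. None of them is of the plain kind. Of the plain probe sets, one read 17.1 and 42.4, just under the polysomal floor, and the other 4.1 and 1.2, far under both floors. With no floor both enter, the dim one with a ratio above 0, and the gene's ratio of -1.68 became -0.52. Intron-containing genes outside the ribosomal proteins had a relative median of 0.29 (0.15 under loess scaling), with 8 of 76 genes 2-fold higher and 3 lower, from TUB1 and SAC6 to SFT1 (-1.19) and the splicing gene SMD2 (-1.13). RPL41A, RPL41B and TEF1 were not measured.

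The shortest and the longest genes stood apart from the rest, with little trend between. Lengths are from start to stop codon in assembly R64, introns included. The 130 genes of up to 300 bp had a median ratio of -0.49, with 2 genes 2-fold higher and 29 lower (22.3% of the 130). The 306 genes above 300 and up to 500 bp had a median of -0.13. The bins from 500 to 4500 bp had medians between -0.15 and 0.046. The 103 genes above 4500 bp had a median of 0.32, with 11 genes 2-fold higher (10.7% of the 103) and 0 lower. Of all measured genes, 6.83% were 2-fold higher and 6.83% lower.

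Across the 4098 protein-coding genes of the nucleus, to which all length values refer, the Spearman rho of ratio and length was 0.023. It was 0.31 among the 436 genes of up to 500 bp and -0.052 among the 3662 longer ones; all values share the same 2 arrays. Relative to all genes, the shortest bin stood at -0.44 and the longest at 0.38, and under loess scaling at -0.49 and 0.36. The a-factor gene MFA2, with 117 bp, read 2133.4 in polysomal and 5646.5 in sub-polysomal RNA (-1.23), while its ratio in DTT-treated cells was -0.075. The other a-factor gene, MFA1 with 111 bp, stood nearer to 0 in control cells (446.8 and 570.5, -0.18), from probe sets not of the plain kind. The short genes on the higher side were PMP2 (132 bp, 1405.5 and 562.0, 1.49) and PMP1 (123 bp, 657.2 and 357.5, 1.06), which encode proteolipids of the plasma membrane proton pump and were singled out after their values were seen. Long genes on the higher side included, also chosen after their values were seen, BEM2 (194.8 and 73.5, 1.58), TAO3 (1.33), the clathrin heavy chain gene CHC1 (1.16) and GCN1 (1.14), a regulator of the kinase upstream of GCN4. Of the 11 long genes past 2-fold, 4 are read by no plain probe set: YMR045C (1.50), YBL005W-B (1.24), YBL100W-B (1.09) and YOR192C-B (1.01) belong to groups of open reading frames that share other probe sets, so their readings may include other copies. The long checkpoint kinase gene TEL1 lay lower, at -0.88, near the floors (20.1 and 41.8).

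**Figure D4:**
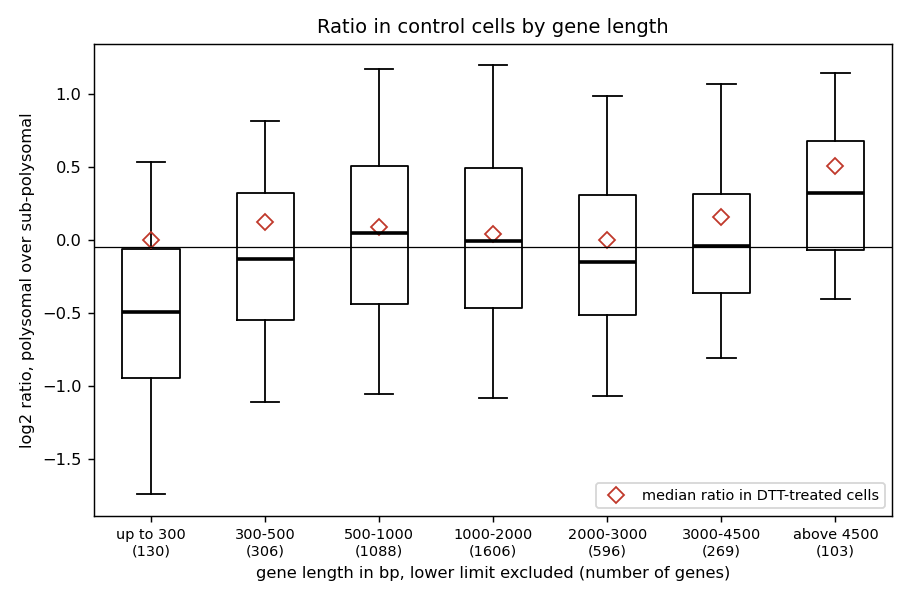
Log2 ratio of polysomal over sub-polysomal RNA in control cells by bins of gene length; thick lines are medians over genes, boxes the quartiles, whiskers the 5th and 95th percentiles, and open diamonds the median in DTT-treated cells. The thin line is the all-gene median. The bins of up to 300 bp (median -0.49) and above 4500 bp (median 0.32) lie below and above the nearly level bins between them.

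The fractions of DTT-treated cells share no array with those of control cells and are the nearest to a repeat, under another treatment. Over 3926 genes measured in both, the ratios correlated with Pearson r 0.733 and Spearman rho 0.720, with 75.7% of genes on the same side of 0. In DTT-treated cells 4.44% of measured genes were 2-fold higher and 4.12% lower. Among the genes measured in both, 280 were 2-fold higher in control cells and 185 in DTT-treated cells, with 98 in common, which is 35% of the control and 53.0% of the DTT genes. At least 2-fold lower were 251 and 152, with 81 in common (32.3% and 53.3%), and 0 genes were 2-fold higher in one and 2-fold lower in the other.

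List by list the positions were similar: 37 of 44 lists lay on the same side of the all-gene median in both treatments. Tricarboxylic acid cycle genes had medians of 1.21 in control and 0.91 in DTT-treated cells, aminoacyl-tRNA synthetases 0.84 and 0.90, and noncoding RNA genes -1.60 and -1.52. Transcripts with upstream open reading frames stood at -0.35 and -0.32. Ribosomal protein genes differed more, with large subunit medians of -0.14 in control and 0.33 in DTT-treated cells, and ribosome biogenesis factors stood at -0.15 and -0.58. The shortest genes had medians of -0.49 and -0.00025, and the longest 0.32 and 0.50. None of these differences between treatments was tested.

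**Figure D5:**
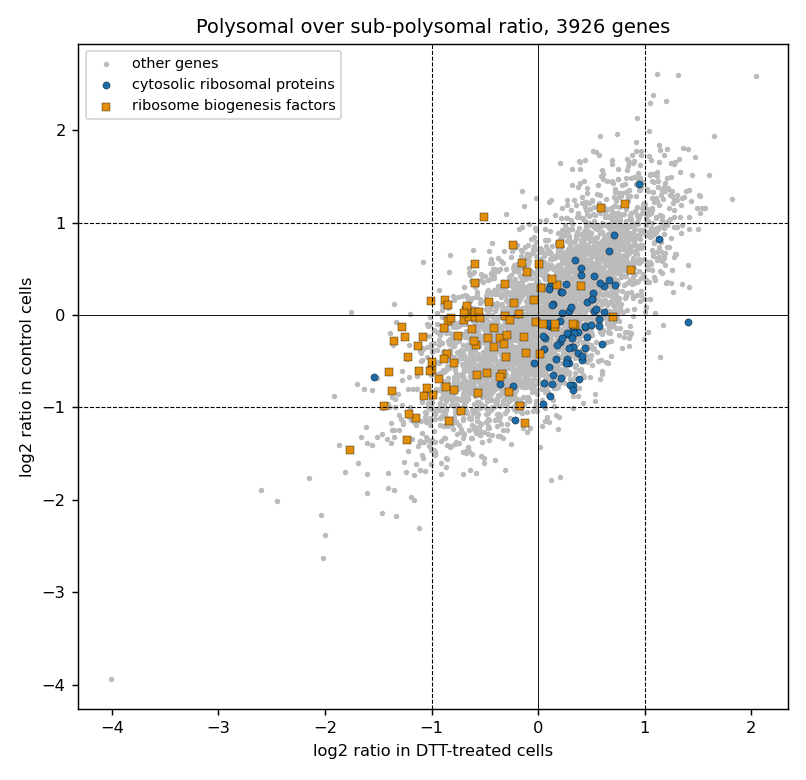
Log2 ratio of polysomal over sub-polysomal RNA in control cells (vertical) and in DTT-treated cells (horizontal) for the genes measured in both, 1 point per gene and 1 array per fraction and treatment; dashed lines are the 2-fold limits. Most genes share their sign, with Pearson r 0.733, and no gene is past the 2-fold limits in opposite directions.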

How the data were processed

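RNA from 4 fractions was hybridised to Affymetrix YG_S98 arrays (chip type per the run sheets), from 5 µg RNA per array per the labels. Each array came with 1 linear intensity per probe set, scaled by the authors to a trimmed mean of about 100; the sources used here do not name the algorithm that summarised probes. Of 9335 probe sets, 6504 name 1 gene in the platform's annotation; names and lengths come from RefSeq assembly R64. The floor was each array's 40th percentile. Ratios were centred on the median of 5046 probe sets above both floors, and a gene is the mean of its probe sets; a plain probe set ends in _at with no further letter. Array medians were 28.5 (polysomal) and 40.5 (sub-polysomal), and the number of arrays limits the precision.

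Named were the 15 highest and 15 lowest genes, the 2 highest and 2 lowest of a described list (some left out of the text), landmark genes and the 5 brightest genes on 1 array only. PDA1, PDB1, LPD1, PDX1, EGD2, HAP4, MIH1, TEM1 and, among short genes, MFA1 were added after their values were seen. Members and lists were chosen with earlier results of these data known. Python 3.11.15, pandas 2.3.3, scipy 1.17.1 and statsmodels 0.14.6 were used, checked on simulated data. Alternatives changed the scaling, floor, probe sets and fold limit.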

Additional observations from a re-analysis of the deposited data

Results flagged for a closer look

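Some results had opposite signs in control and DTT-treated cells, each with 1 array per fraction; none of these differences was tested. Relative to the all-gene median, large subunit ribosomal protein genes stood at -0.090 in control and 0.26 in DTT-treated cells (47 genes), and small subunit genes at -0.10 and 0.22 (34 genes). Purine synthesis genes stood at 0.30 in control and -0.086 in DTT-treated cells (19 genes), and RNA polymerase subunits at 0.22 and -0.12 (31 genes). The decay factor gene LSM6 had a ratio of -1.75 in control and 0.21 in DTT-treated cells, and the oxidase gene ERO1 one of -1.11 and 0.19. The glucanase gene EXG2 had ratios of -1.0 and 0.32, the cyclin gene CLB2 of -1.42 and 0.014, and the nuclear pore gene NUP42 of -1.15 and 0.10, in the same order.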

How the results depend on the processing

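No paired analysis was possible because each group holds 1 array. Of 12 alternatives, 10 give list and gene values and 2 change only the fold limit. A relative median past 0.2, a limit chosen after the values were seen, was found for 32 lists or length bins; 30 kept their sign in every setting that gave a value, but 22 moved by over 1.5 times in at least 1 setting and 17 under loess scaling. Purine synthesis turned from 0.30 to -0.058 (quantile) and -0.089 (loess), RNA polymerase subunits from 0.22 to -0.0085 (quantile) and -0.015 (loess), and the vacuolar list moved from 0.84 to 0.39 (quantile). Of 119 named genes past 2-fold, all kept their sign and 72 stayed past 2-fold, in the settings that measured them. The 282 genes higher and 282 lower became 442 and 168 when centred on hybridisation controls, 178 and 462 without centring, 507 and 391 when the floor was the 20th percentile, 144 and 182 when it was the 60th, 900 and 469 with no floor, 774 and 839 at 1.5-fold and 45 and 43 at 3-fold. Quantile scaling gave 254 and 281, and loess 230 and 258. The all-gene median moved from -0.053 to 0.12 with hybridisation controls, to -0.23 without centring and to 0.18 with no floor. The share of higher genes among those past 2-fold was 50.0%, against 72.5% with hybridisation controls, 27.8% without centring and 65.7% with no floor. The correlation with DTT-treated cells ranged from 0.538 (no floor) to 0.740. Signal over the floor limits dim genes such as DBP1 and TEL1.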

Other observations

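One control probe set for 25S ribosomal RNA read 7.4 in control polysomal and 460.1 in control sub-polysomal RNA, and 1.2 and 14.4 in the DTT fractions. It stood alone among the 18S and 25S control probe sets. All others lay under the floors of both control arrays, with at most 10.7 in polysomal and 23.2 in sub-polysomal RNA.

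Probe sets that name no gene entered no gene value. Above both floors were 441 of 2443 of them, with a median ratio of -0.067; 14.5% were at least 2-fold higher and 13.8% at least 2-fold lower in polysomal RNA, against 7.01% and 6.70% of the probe sets that name 1 gene. Probe sets naming several genes numbered 200 above both floors, with a median of 0.19, 31 of them 2-fold higher and 16 lower.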
